A study of Arabidopsis thaliana with 18 samples.

Results

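Jasmonate is the plant hormone of wounding, herbivory and defence, and its active form is jasmonic acid joined to isoleucine (JA-Ile). JA-Ile releases the bHLH transcription factor MYC2 from its JAZ repressors, and MYC2 then drives storage and defence genes such as VSP1, VSP2 and TAT3. The signal is ended by enzymes that oxidize JA-Ile (the cytochromes P450 CYP94B3 and CYP94C1), hydroxylate jasmonic acid itself (JOX2) or sulfate its hydroxylated product (ST2A), and jasmonate induces most of these genes itself. These 8 Arabidopsis genes, MYC2 (AT1G32640), CYP94C1 (AT2G27690), CYP94B3 (AT3G48520), ST2A (AT5G07010), JOX2 (AT5G05600), VSP1 (AT5G24780), VSP2 (AT5G24770) and TAT3 (AT2G24850), were taken by gene ID from the 27371 genes of the expression table, and all 8 were found.

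Arabidopsis thaliana of ecotype Col-0 was germinated for 5 days and then kept for 16 days on plates with 100 mM NaCl, so every plant was 21 days old and salt-grown, and no group without salt entered these data. Shoots came from 4 groups of 3 libraries each: WT plants with no addition, plants carrying the root endophyte Enterobacter sp. SA187, and plants given 100 nM KMBA (a keto acid derived from methionine, made by SA187) or 100 nM ACC (the precursor from which plants make ethylene). Roots came from 2 groups of 3 libraries, given KMBA or ACC, and roots of WT and SA187 plants were not analysed here. Values are FPKM, fragments scaled to transcript length and to the mapped fragments of the library, in which levels of different genes can be compared per length. How many plants made up a library was not found in the sources used here, so p-values measure the spread between 3 libraries of a group, whatever that spread holds.

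The WT shoot libraries differed more among themselves than the other groups, with correlations of log2 values of 0.937 to 0.970 between replicates against 0.979 to 0.992 in the 5 other groups. Their lowest listed values were also higher. The lowest 5% of values above 0, as FPKM times kilobases for transcripts of 500 to 3000 bases, ended at 0.115 to 0.136 in WT shoots. In the other shoots they ended at 0.0356 to 0.0581. The part of this difference in comparisons of low genes with WT was not tested. The summed level of 5 genes induced by touch and handling (TCH2, TCH3, TCH4, WRKY40 and ZAT12) was 1058 to 2456 FPKM in WT shoots and 429 to 786 FPKM in the other shoots. TCH2, TCH4 and WRKY40 were each higher in every WT library than in any other shoot library, whereas TCH3 and ZAT12 overlapped, and their part in the comparisons with WT was not tested. The labels put all WT and SA187 libraries, 2 of the 3 KMBA shoot libraries and 1 of the 3 ACC shoot libraries in sequencing pool 1, while the other shoot libraries were in pool 3 and KMBA and ACC roots each had a pool of their own, so pool and group cannot be told apart in roots. Labels and markers matched: 4 green tissue genes summed to 14855 to 22810 FPKM in shoots and 426 to 743 FPKM in roots, 5 of 6 root genes were under 1 FPKM in every shoot library, and 7 flower genes summed to no more than 1.26 FPKM.

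MYC2, the transcription factor, was present in every library and was highest in roots. WT shoots had 25.6, 36.4 and 19.5 FPKM, SA187 shoots 42.1, 32.1 and 44.0, KMBA shoots 21.8, 15.5 and 23.1, and ACC shoots 17.6, 19.3 and 21.9. KMBA roots had 58.8, 49.3 and 60.4 FPKM and ACC roots 42.0, 44.1 and 44.2. The 3 SA187 shoot libraries lay above all KMBA and ACC shoot libraries, whereas WT overlapped all 3 treated shoot groups. From highest to lowest mean the order was KMBA roots, ACC roots, SA187 shoots, WT shoots, KMBA shoots and ACC shoots, and among neighbours in that order the ranges were separate for KMBA roots and ACC roots alone. MYC2 lies on chromosome 1 from 11798119 to 11801407 on the minus strand (TAIR10.1, a release of the assembly the submitters used), in 1 exon. Another annotated gene, AT1G32630, overlaps it over 3241 bases on the opposite strand, and 98.5% of the 50-base words in the MYC2 transcript also occur there. AT1G32630 was listed at 3.03 to 7.61 FPKM, and the sources used here do not give whether counting used strand, so reads of the pair may have been divided.

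CYP94C1, which oxidizes hydroxylated JA-Ile to its carboxyl form, was the member that fell in all 3 treatments. WT shoots had 31.8, 24.8 and 17.9 FPKM, KMBA shoots 3.77, 5.99 and 5.55, and ACC shoots 6.37, 7.30 and 3.60. SA187 shoots, at 12.95, 9.40 and 8.79 FPKM, lay between, below every WT library and above every KMBA and ACC shoot library. Roots were lower again or level with the treated shoots, at 3.72, 2.88 and 3.94 FPKM with KMBA and 2.31, 2.86 and 2.89 FPKM with ACC. Among neighbours in the order of means, WT and SA187 shoots were separate, as were SA187 and ACC shoots, while ACC shoots, KMBA shoots, KMBA roots and ACC roots each overlapped the next. CYP94C1 is a gene of 1 exon on chromosome 2 from 11809279 to 11811280 on the plus strand, and shares no 50-base word with another gene.

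CYP94B3, which puts the hydroxyl on JA-Ile, was below CYP94C1 in every shoot library and above it in every root library. Against the fall of CYP94C1, its shoot levels were higher with KMBA and ACC than in WT, while SA187 overlapped WT. WT shoots were listed at 0.0277, 0.326 and 0.0627 FPKM, SA187 shoots at 0.292, 0.302 and 2.00, KMBA shoots at 0.578, 0.504 and 2.69, and ACC shoots at 0.984, 1.27 and 1.59. All ACC and KMBA libraries lay above all WT libraries, but in the SA187 and KMBA groups replicate 3 alone was over 1 FPKM. Roots held 5.01, 4.87 and 5.64 FPKM with KMBA and 5.05, 5.77 and 6.38 FPKM with ACC, above every shoot library and overlapping each other. CYP94B3 passed the filter on low values in shoots (1 FPKM in 3 libraries) through 2 ACC, 1 SA187 and 1 KMBA library and was at or under 0.33 FPKM in all WT libraries, where the number of reads behind a value is unknown.

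CYP94B1 codes for a related JA-Ile hydroxylase whose coding sequence is 77.4% identical to that of CYP94B3 and which shares no 50-base word with it. In roots it was the most abundant of the 3 CYP94 genes, at 18.6, 12.4 and 16.4 FPKM with KMBA and 11.9, 11.5 and 9.97 FPKM with ACC, against 0.190 to 3.22 FPKM over the 12 shoot libraries. CYP94C1 therefore made up 96.9% ± 2.34 (SD, n = 3) of the summed FPKM of CYP94C1, CYP94B3 and CYP94B1 in WT shoots, 78.1% ± 14.2 in SA187 shoots, 65.8% ± 15.6 in KMBA shoots and 73.2% ± 11.0 in ACC shoots. In roots its share was 14.4% ± 0.777 with KMBA and 13.7% ± 1.58 with ACC (n = 3 each). The summed level was 25.6 ± 7.16 FPKM in WT shoots, 8.13 ± 3.04 in KMBA shoots and 7.74 ± 1.91 in ACC shoots, and 24.5 ± 3.78 FPKM in KMBA and 19.5 ± 0.474 FPKM in ACC roots.

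**Figure D1:**
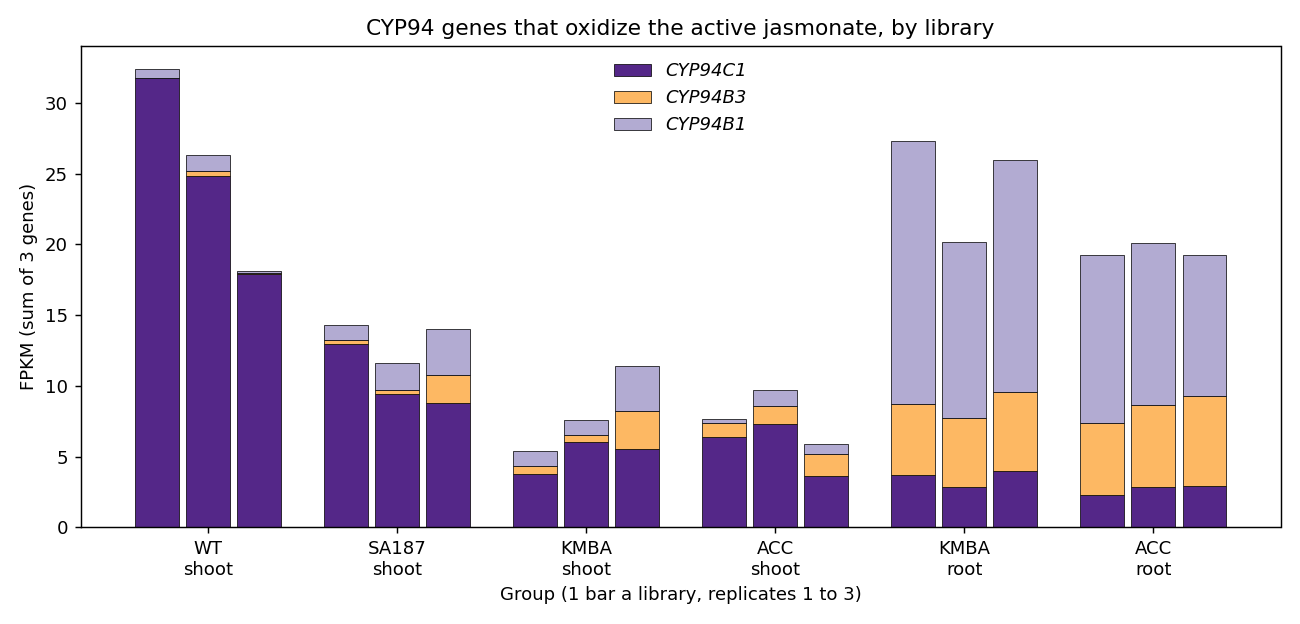
Summed FPKM of CYP94C1, CYP94B3 and CYP94B1, with 1 stacked bar for each of the 18 libraries, replicates 1 to 3 from left to right in each group. CYP94C1 makes up nearly all of the bar in WT shoots (96.9% on average) and the smallest part in roots (14.4% and 13.7%), where CYP94B1 is the largest part.

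ST2A, a sulfotransferase that acts on hydroxylated jasmonate, was low in shoots and high in roots. The 12 shoot libraries ranged from 0.161 to 1.09 FPKM, and KMBA roots had 14.4, 12.2 and 14.2 FPKM and ACC roots 19.1, 24.0 and 19.9 FPKM. The ACC roots lay above all KMBA roots, and in shoots the ACC libraries (0.594, 1.09 and 0.682 FPKM) lay above all WT and SA187 libraries. ST2A did not pass the filter on low values in shoots, so no test was run there. Its neighbour ST2B (AT5G07000), 91.6% identical in coding sequence, sharing 4 of the 1730 50-base words of ST2A, was spread the other way, at 2.60 to 5.51 FPKM in shoots and 1.22 to 3.28 FPKM in roots.

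JOX2, an oxygenase that hydroxylates jasmonic acid before it can be joined to isoleucine, stood above WT with SA187 and KMBA and below WT with ACC. WT shoots had 16.7, 22.3 and 15.0 FPKM, SA187 shoots 31.4, 27.4 and 42.0, and KMBA shoots 23.1, 24.6 and 29.8. ACC shoots had 9.63, 13.7 and 10.8 FPKM. Every SA187 and KMBA library lay above every WT library and every ACC library lay below, and SA187 and KMBA overlapped. Roots held 14.2, 11.97 and 17.1 FPKM with KMBA and 9.55, 11.7 and 8.69 FPKM with ACC, with no overlap. JOX2 lies on chromosome 5 from 1672070 to 1674770 on the plus strand. Of its relatives, JOX4 was called in KMBA shoots (below), JOX3 was at 1.25, 0.508 and 1.86 FPKM in ACC shoots and at no more than 0.463 FPKM in the other shoots, and JOX1 was at no more than 0.319 FPKM in any library.

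VSP1 and VSP2, vegetative storage proteins of the acid phosphatase family and classical targets of MYC2, were the most abundant members in shoots and in KMBA roots, while in ACC roots MYC2 was above VSP1. VSP2 had 253, 220 and 184 FPKM in WT shoots, 209, 176 and 186 in SA187 shoots, 184, 168 and 211 in KMBA shoots and 109, 107 and 137 in ACC shoots. The ACC shoots lay below all other shoot libraries, and the other 3 groups overlapped. In roots VSP2 had 134, 119 and 130 FPKM with KMBA and 77.0, 91.8 and 84.6 FPKM with ACC, again with ACC below.

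VSP1 had 115, 58.8 and 44.3 FPKM in WT shoots, where replicate 1 stood apart from the others. SA187 shoots had 56.5, 47.3 and 57.7 FPKM, KMBA shoots 53.5, 51.7 and 64.6, and ACC shoots 29.0, 24.2 and 48.1, so ACC replicate 3 overlapped both WT and SA187. KMBA roots had 111, 79.9 and 106 FPKM and ACC roots 39.8, 36.9 and 41.1 FPKM, well separated. The ratio of VSP1 to VSP2 was 0.320 ± 0.115 in WT shoots, 0.283 ± 0.0229 in SA187 shoots, 0.301 ± 0.00976 in KMBA shoots, 0.282 ± 0.0643 in ACC shoots, 0.771 ± 0.0849 in KMBA roots and 0.468 ± 0.0596 in ACC roots (SD, n = 3 each). The 3 root ratios with KMBA all lay above those with ACC, and the exact two-sided permutation test on the log2 ratio gave p = 0.1, the smallest that 3 against 3 libraries allow.

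**Figure D2:**
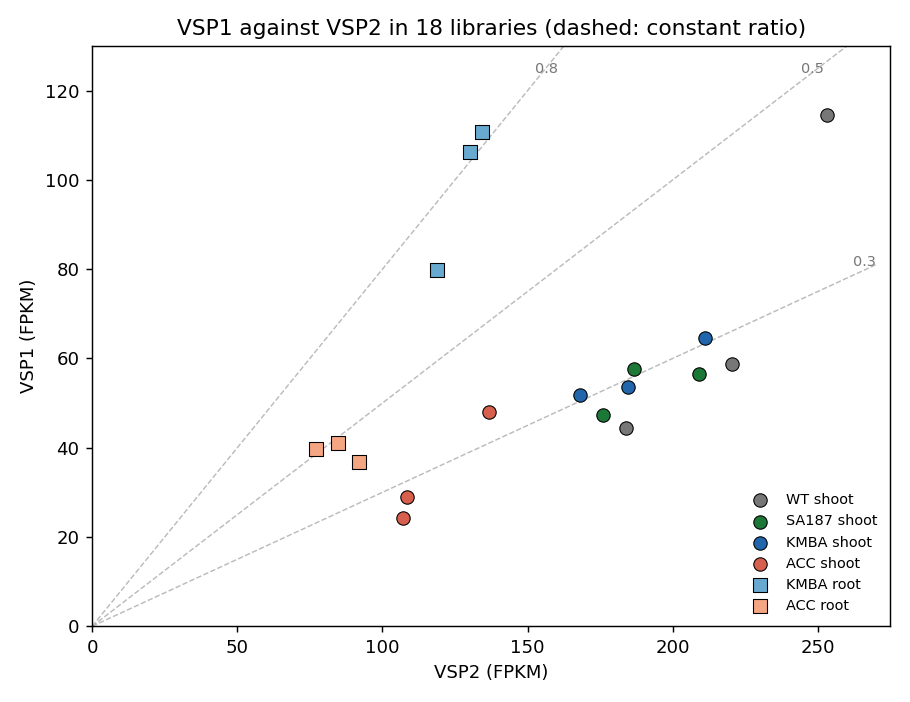
VSP1 against VSP2, both in FPKM, with 1 point for each of the 18 libraries (circles for shoots, squares for roots, colours for groups) and dashed lines of constant ratio at 0.3, 0.5 and 0.8. Shoot libraries lie near the lowest line, at ratios of 0.226 to 0.352 apart from WT replicate 1 at 0.452, KMBA roots along the highest (0.771 on average) and ACC roots near the middle line (0.468 on average).

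The 2 VSP genes sit beside each other on the minus strand of chromosome 5, VSP2 from 8500468 to 8502224 and VSP1 from 8507590 to 8509201, with coding sequences 90.4% identical. They share only 5 of the 50-base words of their transcripts (0.37% of those of VSP1), so reads could in the main be assigned to 1 of them. The 300 bases before each start are shown because these genes, near copies of each other, had unlike ratios in roots and shoots. TAT3 is added as a target that was higher, not lower, in ACC than in SA187 shoots. Capitals mark the T/G-box AACGTG, searched on both strands (here read as CACGTT), an element that MYC2 is known to bind. The sequences are RefSeq's for TAIR10.1, each 5′ to 3′ on the strand of its gene and ending at the base before the annotated start, VSP1 at chr5:8509202-8509501, VSP2 at chr5:8502225-8502524 and TAT3 at chr2:10585217-10585516, all on the minus strand.
VSP1: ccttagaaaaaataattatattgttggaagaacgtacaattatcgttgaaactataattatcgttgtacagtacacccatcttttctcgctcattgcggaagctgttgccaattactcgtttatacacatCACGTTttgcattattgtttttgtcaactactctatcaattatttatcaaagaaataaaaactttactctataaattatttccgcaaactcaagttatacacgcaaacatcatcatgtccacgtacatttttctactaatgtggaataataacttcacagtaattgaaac
VSP2: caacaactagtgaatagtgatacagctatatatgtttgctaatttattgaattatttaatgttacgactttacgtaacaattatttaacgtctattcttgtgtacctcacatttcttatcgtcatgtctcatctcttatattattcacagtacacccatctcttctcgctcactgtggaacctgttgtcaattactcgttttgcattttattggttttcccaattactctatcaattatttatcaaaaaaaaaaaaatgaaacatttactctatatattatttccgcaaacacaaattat
TAT3: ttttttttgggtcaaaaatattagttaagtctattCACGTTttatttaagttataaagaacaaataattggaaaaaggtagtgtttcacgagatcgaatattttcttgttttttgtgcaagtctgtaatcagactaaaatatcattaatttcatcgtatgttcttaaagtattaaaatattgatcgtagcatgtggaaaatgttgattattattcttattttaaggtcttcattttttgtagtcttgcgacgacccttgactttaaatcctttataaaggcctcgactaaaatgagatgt

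The T/G-box stood 170 bases before the start of VSP1 and 265 before that of TAT3, and VSP2 had none in its 300 bases. Over the 8 genes it occurred in 3 (MYC2, VSP1 and TAT3), and in 8.8% of 26693 promoters of the same length. The G-box CACGTG was in none of the 8 and in 7.2% of all promoters, and the GCC-box GCCGCC, the element of ethylene response factors, in none of the 8 and in 2.2% of all. With 1000 bases before the start, the T/G-box was in 4 of the 8, CYP94B3 being the addition, and in 23.9% of all promoters, and neither of the other motifs was found in the 8.

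TAT3, a tyrosine aminotransferase induced by wounding and jasmonate, was low outside ACC shoots. ACC shoots had 2.83, 2.08 and 2.36 FPKM, above every other library except WT replicate 3. The WT libraries were at 0.351, 0.455 and 2.93 FPKM, and SA187 shoots at 0.294, 0.944 and 0.272 FPKM. KMBA shoots had 0.435, 0.162 and 0.736 FPKM and all 6 root libraries between 0.135 and 0.403 FPKM. TAT3 passed the filter in shoots only through the 3 ACC libraries and WT replicate 3, and was not tested in roots.

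**Figure D3:**
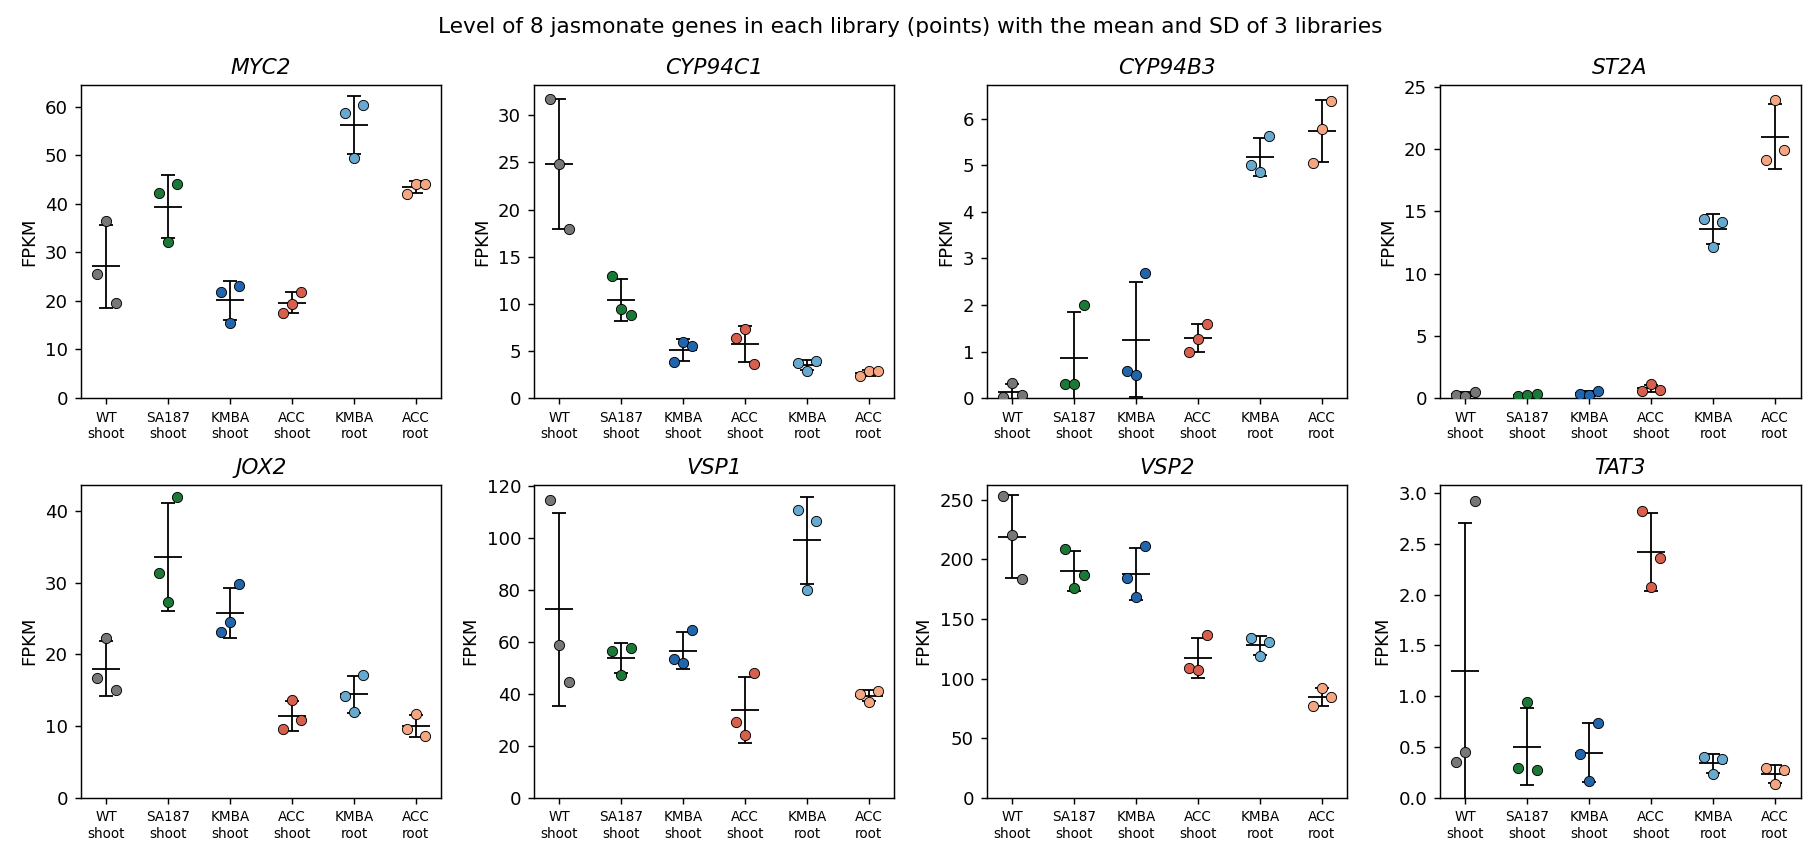
FPKM of the 8 genes, 1 panel a gene on a linear axis that starts at 0, in the 6 groups; points are libraries (replicates 1 to 3 from left to right), and bars give the mean ± SD of 3 libraries, cut at 0 where the SD exceeds the mean. CYP94C1 is highest in WT shoots (17.9 to 31.8 FPKM), ST2A and CYP94B3 are highest in roots, and TAT3 is high in ACC shoots and in WT replicate 3.

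SA187 was compared with WT shoots to ask what the endophyte changes in salt-grown plants. Tests were limma fits of log2(FPKM + 1) over all genes, with Benjamini-Hochberg adjustment, and a gene was called at an adjusted p under 0.05 and a fold over 2. Of the 7 members tested, 1 was called (CYP94C1), where 1.62% of all 15724 genes tested were called. The adjusted p alone was passed by 2 members and by 957 of the 15724 genes. CYP94C1 fell by 1.16 on the log2 scale (SE 0.25, adjusted p = 0.0267). JOX2 rose by 0.86 (SE 0.19, adjusted p = 0.0275), short of 2-fold, so the P450 and the oxygenase changed in opposite directions. MYC2 differed by 0.55 (SE 0.22, adjusted p = 0.135) with overlapping groups, and VSP1 and VSP2 by -0.31 and -0.19 (adjusted p = 0.535 and 0.434). The CYP94C1 call did not outlast leaving out WT replicate 1 (adjusted p = 0.0883), SA187 replicate 2 (0.0977) or SA187 replicate 3 (0.106), nor the fit on pool 1 alone (0.0690), although its log2 value stayed between -1.37 and -0.98 in the fits that left out a library.

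KMBA was compared with WT shoots to ask how far a metabolite of SA187 acts like the bacterium. CYP94C1 was again the only member called of 7, beside 3.08% of all genes, with a fall of 2.06 on the log2 scale (SE 0.25, adjusted p = 0.00208). It was also called within pool 1, at -2.12 with 2 KMBA libraries (adjusted p = 0.0292), and after leaving out any 1 library. JOX2 differed by 0.51 (SE 0.19, adjusted p = 0.0755) and CYP94B3 by 0.87 (SE 0.36, adjusted p = 0.100). The added 1 shrinks fold changes of a gene as low as CYP94B3. It was tested in shoots through treated libraries alone, and of the KMBA shoots only replicate 3, in pool 3, was over 1 FPKM. VSP1 and VSP2 differed by -0.24 and -0.21, and MYC2 by -0.39 (adjusted p = 0.203).

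ACC was compared with WT shoots as the treatment that supplies ethylene. Of 7 members tested 3 were called, beside 4.89% of all genes: CYP94C1 and VSP1 fell and CYP94B3 rose. The adjusted p alone was passed by 5 of the 7 members and by 5272 of 15724 genes. CYP94B3 passed the filter through treated libraries alone, 2 of them ACC libraries in which it was high. Its call is therefore no independent support for a rise. CYP94C1 fell by 1.94 (SE 0.25, adjusted p = 4.5e-04) and within pool 1, with 1 ACC library, by 1.77 (adjusted p = 0.0254). VSP1 fell by 1.03 (SE 0.31, adjusted p = 0.0243) and VSP2 by 0.89 (SE 0.15, adjusted p = 0.00174), the latter under 2-fold but with no overlap between groups. JOX2 fell by 0.61 (SE 0.19, adjusted p = 0.0283), and MYC2 differed by -0.41 (adjusted p = 0.159). CYP94B3 was 1.00 higher (SE 0.36, adjusted p = 0.0480), just past both limits, and TAT3 differed by 0.79 (SE 0.34, adjusted p = 0.0904), or by 1.28 (adjusted p = 0.00186) without WT replicate 3. The CYP94B3 call ended with pool as a covariate (0.49, adjusted p = 0.359) and without WT replicate 1 or 3 or any 1 ACC library (adjusted p 0.0771 to 0.129), and the VSP1 call ended without WT replicate 1 (-0.64, adjusted p = 0.0802), ACC replicate 1 (0.0763) or ACC replicate 2 (0.0911).

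**Figure D4:**
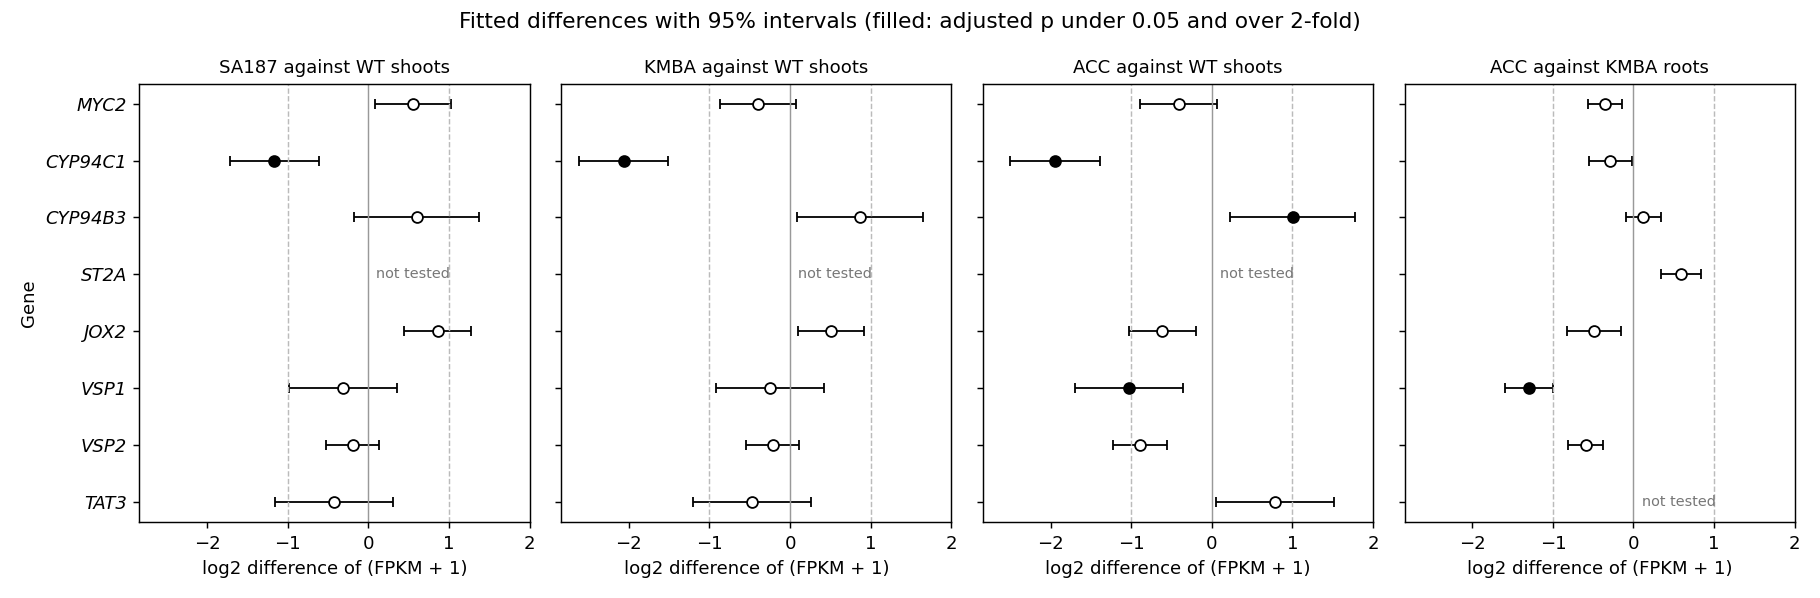
Fitted log2 differences of (FPKM + 1) with 95% confidence intervals for the 8 genes in 3 shoot comparisons and 1 root comparison, 3 libraries a group; filled points passed an adjusted p of 0.05 and a fold of 2, dashed lines mark 2-fold, and genes under the filter are marked as not tested. CYP94C1 is filled in all 3 shoot panels (-1.16, -2.06 and -1.94), and JOX2 is right of 0 with SA187 and KMBA (0.86 and 0.51) and left of 0 with ACC (-0.61).

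The treated shoots were also set against each other, in comparisons that share libraries with those above. Between KMBA and SA187 shoots no gene of the table was called (0% called), and 2 members reached an unadjusted p under 0.05 in limma's moderated fit across all genes, MYC2 at -0.94 (95% interval -1.42 to -0.47) and CYP94C1 at -0.90 (interval -1.45 to -0.34). Both were lower in each KMBA library than in each SA187 library, with limma adjusted p = 0.571 and 0.908. The share of all genes at that unadjusted p, or without overlap, was not computed. These 2 values are therefore a description and no result about the members, and 0 of 15724 genes passed an adjusted p of 0.05. For VSP2 the interval was -0.35 to 0.31 and for JOX2 -0.77 to 0.06.

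ACC shoots differed from SA187 shoots in JOX2 and TAT3 (2 of 7 called, beside 1.77% of all genes). An adjusted p under 0.05 alone was reached by 4 of the 7 members and by 1446 of 15724 genes. JOX2 was lower with ACC (-1.47, SE 0.19, adjusted p = 0.00129) and also called within pool 1 (-1.68, adjusted p = 0.0311), and TAT3 was 1.21 higher (SE 0.34, adjusted p = 0.0448). MYC2 fell by 0.96 (adjusted p = 0.0194) and VSP2 by 0.70 (adjusted p = 0.0164), both under 2-fold on the log2(FPKM + 1) scale and with no overlap. In mean FPKM, MYC2 was 2.01 times as high with SA187 as with ACC. TAT3 was tested there through the ACC libraries in which it was high. The TAT3 call ended when any 1 library of either group was left out (adjusted p 0.0608 to 0.160) and with pool as a covariate (0.164).

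ACC and KMBA, given at the same 100 nM, differed in shoots in JOX2 (1 of 7 called, beside 0.795% of all genes), which was lower with ACC (-1.12, SE 0.19, adjusted p = 0.0120). VSP2 was also lower (-0.68, SE 0.15, adjusted p = 0.0411), and VSP1 differed by -0.78 (adjusted p = 0.230), both with no overlap between groups. An adjusted p under 0.05 alone was reached by 2 of the 7 members and by 373 of 15724 genes. CYP94C1 and MYC2 differed by 0.12 (95% interval -0.43 to 0.68) and -0.02 (-0.49 to 0.45), so neither a rise nor a fall within these intervals was detectable. The JOX2 call ended without ACC replicate 1 (adjusted p = 0.0668), KMBA replicate 2 (0.0519) or KMBA replicate 3 (0.0604) and within pool 1 (-1.22, adjusted p = 0.214).

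In roots, ACC against KMBA gave 1 call among 7 members tested, beside 1.26% of 17169 genes. VSP1 was lower with ACC (-1.299, SE 0.13, adjusted p = 0.00184), and VSP2 followed at -0.59 (SE 0.09, adjusted p = 0.00752), MYC2 at -0.36 (SE 0.09, adjusted p = 0.0370) and ST2A at 0.59 (SE 0.10, adjusted p = 0.0120), all 3 under 2-fold with no overlap. At an adjusted p under 0.05 alone, 4 of the 7 members passed, beside 2779 of 17169 genes. The share of all genes without overlap was not computed. JOX2 differed by -0.49 (adjusted p = 0.0600), CYP94C1 by -0.29 (adjusted p = 0.132) and CYP94B3 by 0.12 (95% interval -0.10 to 0.34). MYC2 and its target VSP genes were thus lower and the sulfotransferase higher in ACC roots, whose pool was not that of the KMBA roots.

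Roots and shoots given the same compound were compared next, in libraries of different pools, where 36.6% (ACC) and 38.2% (KMBA) of 18357 genes were called and the median log2 difference of all genes was 0.37 and 0.40. In bulk tissue, fewer cells of a type and less RNA per cell cannot be told apart. ST2A was 3.62 higher in roots with ACC (SE 0.13, adjusted p = 5.65e-11) and 3.41 higher with KMBA (SE 0.13, adjusted p = 9.21e-11), the largest organ differences among the 8. CYP94B3 was 1.57 and 1.58 higher in roots (SE 0.27 each, adjusted p = 1.44e-04 and 1.28e-04). MYC2 was 1.11 and 1.45 higher, and fell under 2-fold at 0.71 and 0.99 once libraries were rescaled by their median ratio. TAT3 was lower in roots with ACC (-1.47, SE 0.13, adjusted p = 4.52e-07) and differed by -0.09 with KMBA (adjusted p = 0.524). TAT3 entered this fit only through the 3 ACC shoot libraries, and ST2A through the roots, so their differences are descriptions of the groups that let them in. The members called were 4 of 8 with ACC and 3 of 8 with KMBA with these included, and with KMBA VSP1 was 0.79 higher (adjusted p = 0.00359) and JOX2 lower (-0.80, adjusted p = 4.03e-04) in roots than in shoots, both under 2-fold. In the test of the difference between these organ differences 10.3% of all genes passed, and of the 8 only TAT3 (adjusted p = 0.00116), whose place in the fit again rested on the 3 ACC shoot libraries; none of the other 7 did.

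The other 58 genes of the pathway, in 6 lists, give the setting of the 8. List counts with SA187, KMBA and ACC against WT stand beside 1.62%, 3.08% and 4.89% of all genes called. Among 14 jasmonate synthesis genes 13 were tested, and 3 rose and 1 fell with SA187, 3 rose and 1 fell with KMBA, and 1 fell with ACC. Their median log2 differences from WT were 0.66, 0.51 and -0.57, against -0.024, 0.0016 and 0.059 for all genes tested. OPR3, the reductase of the peroxisomal step, had 52.2 ± 20.3 FPKM in WT and 116 ± 12.2 in SA187 shoots (SD, n = 3 each), a rise of 1.202 (SE 0.27, adjusted p = 0.0281). AOC3, an allene oxide cyclase, fell in all 3 treatments, with SA187 (-1.096, adjusted p = 0.0287) and KMBA against the median of the list, from 12.2 ± 4.14 FPKM in WT to 3.30 ± 0.952 with KMBA (-1.59, adjusted p = 0.00466), and with ACC to 3.88 ± 1.27 FPKM (-1.42, adjusted p = 0.00192).

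Of 13 JAZ repressor genes 9 were tested. None passed both limits with SA187, while 3 fell and none rose with KMBA and with ACC. With SA187, 5 had an unadjusted limma p under 0.05. An adjusted p under 0.05 was reached by 3 of the 9, beside 957 of 15724 genes. Of the 3, 1 was higher and 2 were lower, all under 2-fold on the log2(FPKM + 1) scale. The 2 lower were JAZ1 (29.5 ± 6.50 to 14.9 ± 1.67 FPKM, -0.93, adjusted p = 0.0237) and JAZ5 (7.52 ± 1.76 to 3.95 ± 0.274 FPKM, -0.76, adjusted p = 0.0261). JAZ7 fell from 30.6 ± 4.02 FPKM in WT to 5.95 ± 0.775 with KMBA (-2.18, adjusted p = 0.00208) and to 2.55 ± 0.195 with ACC (-3.15, adjusted p = 3.66e-05). JAZ6 fell with ACC from 70.4 ± 8.09 to 22.1 ± 4.01 FPKM (-1.63, adjusted p = 1.4e-04). The list medians were 0.23 with SA187, -0.0031 with KMBA and -0.65 with ACC.

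None of 10 genes for perception and transcription factors (the receptor COI1, the adaptor NINJA, MYC and JAM factors and 2 NAC factors) was called in the 3 comparisons with WT, and 2, 2 and 4 had an unadjusted limma p under 0.05 with SA187, KMBA and ACC. JAM1, a repressor that competes with MYC2, fell by 0.49 with KMBA (adjusted p = 0.0407) and by 0.44 with ACC (adjusted p = 0.0435). JAM2, another JAM factor, rose by 0.40 with ACC (5.07 ± 1.04 to 6.95 ± 0.635 FPKM, adjusted p = 0.0301), so JAM1 and JAM2 did not share a direction there. The adjusted p alone was passed by 1 of the 10 genes with KMBA and by 2 with ACC. Of all 15724 genes, 3222 with KMBA and 5272 with ACC passed it. Among 9 other turnover genes 5 were tested, IAR3, a hydrolase of jasmonate and auxin conjugates, was called with SA187 (10.4 ± 6.89 to 25.8 ± 5.92 FPKM, 1.37, adjusted p = 0.0426), and JOX4 with KMBA (2.32 ± 1.39 to 10.7 ± 3.87 FPKM, 1.84, adjusted p = 0.0159). Among 5 other genes of the MYC branch 3 were tested, and CLH1, a chlorophyllase, was called with SA187 (47.7 ± 21.5 to 105 ± 6.93 FPKM, 1.22, adjusted p = 0.0323). CORI3 fell by 0.62 with ACC (adjusted p = 0.00775), under 2-fold.

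The branch that jasmonate shares with ethylene, run by the ethylene response factors ORA59 and ERF1, had 7 genes on the list and 4 tested. ORA59 was called in ACC shoots (0.430 ± 0.112 FPKM in WT, 3.02 ± 0.957 with ACC, 1.47, adjusted p = 4.36e-04), where 1 SA187 library and the 3 ACC libraries alone reached 1 FPKM and so let it be tested, and none was called with SA187 or KMBA, where 0 and 1 had an unadjusted limma p under 0.05. In roots all 4 tested were called higher with ACC than with KMBA, beside 1.26% of all genes called in either direction. The list median was 1.63 against 0.0046 for all genes. ERF1 had 0.799, 0.509 and 1.40 FPKM in KMBA roots and 4.20, 5.10 and 4.59 FPKM in ACC roots. It passed the filter there through 1 KMBA library and the 3 ACC libraries, in which it was high. HEL, a chitin-binding defence protein, had 1558 ± 239.5 FPKM in ACC and 383 ± 62.0 FPKM in KMBA roots (2.02, SE 0.16, adjusted p = 8.6e-04), and ORA59 39.7 ± 3.96 and 11.8 ± 2.33 FPKM (1.68, adjusted p = 8.68e-04). In the same root libraries VSP1 and VSP2 were lower with ACC, opposite in direction to the 4 ERF branch genes tested. PDF1.2A, PDF1.2B and PDF1.3 were at no more than 0.345 FPKM in roots and were not tested. Of the 5 other MYC branch genes only JR1 was tested in roots, and the NAC factor ANAC055 was higher with ACC (both below). The 2 compounds were in different pools in roots, so a difference between whole branches was not tested.

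**Figure D5:**
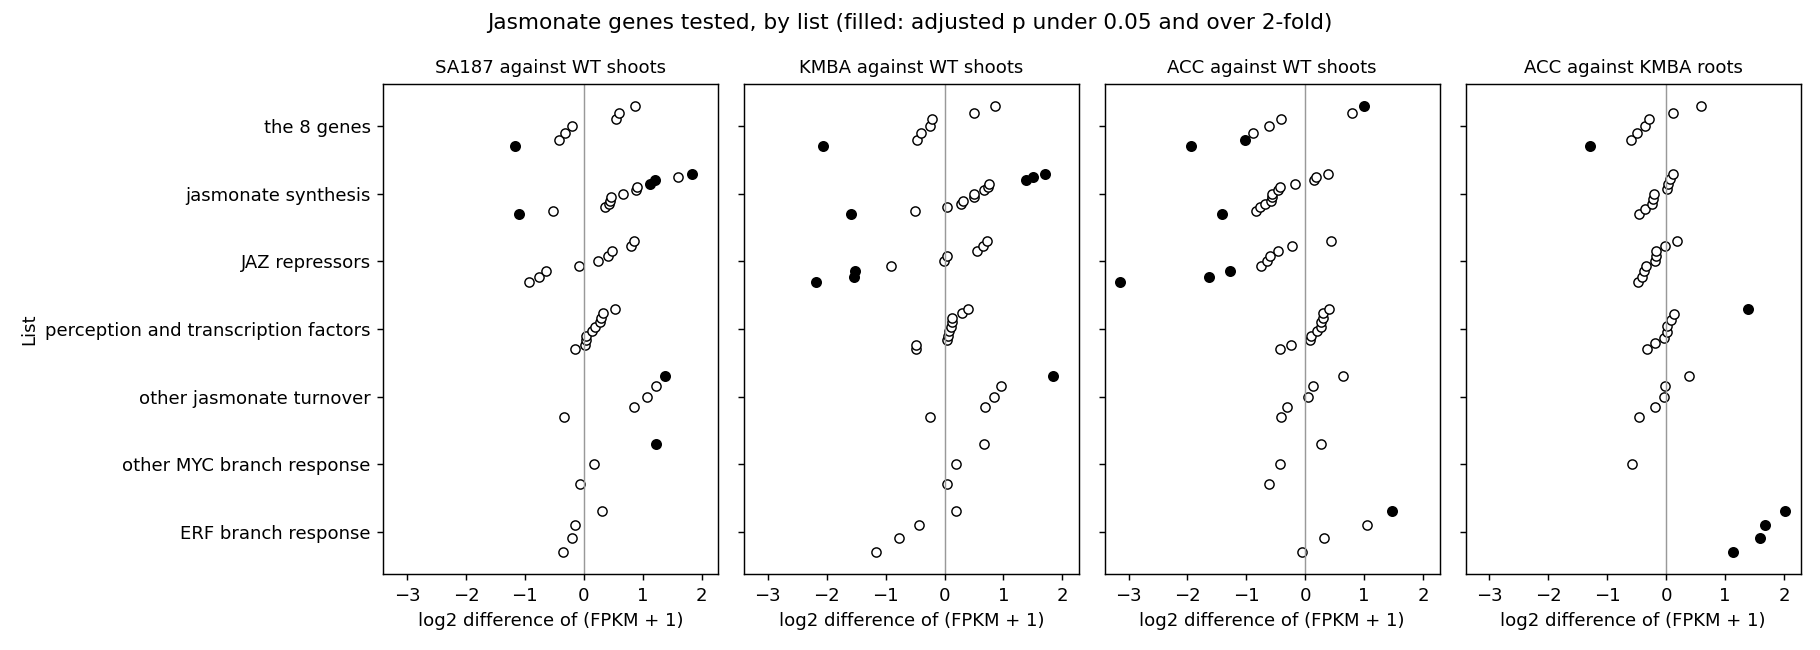
Fitted log2 differences of (FPKM + 1) for every tested gene of the 8 and of the 6 other lists, 1 point a gene, sorted within a list, in 4 comparisons; filled points passed an adjusted p of 0.05 and a fold of 2. Synthesis genes lie mostly right of 0 with SA187 and KMBA (medians 0.66 and 0.51) and left with ACC (-0.57). The 4 ERF branch genes tested are all filled on the right in roots (median 1.63), ERF1 having passed the filter mostly through the ACC libraries.

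Across the 12 shoot libraries, Pearson correlations of log2(FPKM + 1) were computed between members as a description, since the libraries share groups and the differences between groups enter every value. VSP1 and VSP2 had the highest at 0.91, and JOX2 and TAT3 the lowest at -0.80. CYP94C1 correlated at -0.66 with CYP94B3 and at 0.08 with JOX2, so the turnover genes did not follow a common course. MYC2 correlated at 0.66 with JOX2, 0.52 with VSP2 and 0.40 with CYP94C1. Among all genes, those most like JOX2 were MES5 and OPR3 (0.98 each), those most like CYP94C1 were NET3C (0.95) and JAZ5 (0.93), and those most like VSP2 were CYP71A22 (0.96) and TSA1 (0.95). TAT3 was most like GER2 and the salicylate marker PR1 (0.95 each), ST2A most like GH9B8 (0.92), MYC2 most like NF-YB2 (0.89), and CYP94B3 most like AT5G19350 and TOPP3 (0.95 each).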

How the data were processed

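Poly(A) RNA of 18 libraries was sequenced on an Illumina HiSeq instrument. The authors trimmed reads with Trimmomatic 0.36, aligned them to TAIR10 with TopHat and deposited FPKM values made with Cufflinks 2.2.1 (versions from the submitters' processing notes, which also name FastQC 0.11.5, featureCounts 1.5.1 and Cuffdiff). FPKM keep no count of reads, so the depth behind a value is unknown, low values are the least precise, and no counting interval is given.

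The table holds a value for each of 27371 genes in every library, with groups taken from the labels. Values were log2-transformed after adding 1, genes with at least 1 FPKM in 3 libraries of a fit were kept, and limma 3.58.1 (R 4.3.3, empirical Bayes with a mean trend) was fitted to all 12 shoot libraries, all 6 root libraries, or the 12 libraries given ACC or KMBA (organ differences and their interaction). P-values were adjusted by Benjamini-Hochberg over all genes of a fit. A gene was called at an adjusted p under 0.05 and a fold over 2 (the interaction at the adjusted p alone). Shares of all genes at an unadjusted p under 0.05, or with no overlap between groups, were not computed. Counts and statements of these kinds therefore describe the named genes only. The fit was also run on simulated data with a single spread for each gene and no pools. Such data cannot show how the fit handles the wider spread of WT libraries or the pools. Fold changes on this scale understate those of low genes.

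The members and lists were chosen with earlier results of these data known. Named are the 8 members, up to 2 genes with the lowest p in each pathway list in each comparison with WT and in roots, and genes from the 3 most correlated with each member, of which 1 is not reported here. Other settings tried were median-ratio scaling, a pseudocount of 0.1, no filter on low values, a fit without the trend, a replicate block, subtraction of length and GC trends, pool as a covariate, other sets of groups, leaving out each library and, added after seeing the data, pool 1 libraries alone.

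Sequences, coordinates and coding identities came from RefSeq's TAIR10.1 annotation, whose gene IDs are those of the table. JOX1, JOX2 and JOX4 carry no symbol there and are named from general knowledge of their IDs. Levels of plants without salt and of WT and SA187 roots were not analysed here.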

Additional observations from a re-analysis of the deposited data

Results flagged for a closer look

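TAT3 stood apart in ACC shoots, and its value in the organ comparison describes the libraries that let it be tested. The difference between roots and shoots was lower with ACC than with KMBA by 1.37 on the log2 scale (log2 difference of differences -1.37, SE 0.19, adjusted p = 0.00116, limma interaction test over 18357 genes, of which 10.3% passed). Both root groups were at or under 0.403 FPKM and KMBA shoots at or under 0.736 FPKM, while the 3 ACC shoot libraries held 2.08 to 2.83 FPKM, so TAT3 passed the filter only through those 3 libraries, and its p is no independent support for a difference. Without any 1 of these 3 libraries TAT3 fell under the filter and gave no value, and without ACC shoot replicate 2 JOX2 passed instead (0.76, adjusted p = 0.0458). In a fit of all 6 groups the adjusted p was 0.0623. Of the 3 ACC shoot libraries 1 was in pool 1 and 2 in pool 3, and the roots were in pools 2 and 4, so the part of pool cannot be told apart. JOX2 was the next member, at 0.63 (adjusted p = 0.0948).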

How the results depend on the processing

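Over the alternatives other than leaving out a library, 535 of 575 member values kept their direction and call, 19 lost a call, 13 gained one and 8 changed sign; over fits without 1 library the counts were 427, 20, 8 and 25 of 480.

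The number of members called with SA187 against WT (1) was 0 with no filter on low values, in pool 1 libraries alone and with only those 2 groups fitted, and 2 with length and GC trends subtracted (JOX2 added), and it ranged from 0 to 2 without 1 library. With KMBA against WT it was 2 in place of 1 at a pseudocount of 0.1 (CYP94B3 added, 2.34, a gene tested in shoots through treated libraries alone). With ACC against WT it was 1 in place of 3 in pool 1 alone and with only the 2 groups fitted, and 1 to 4 without 1 library. With ACC against SA187 it was 1 in place of 2 at a pseudocount of 0.1, with no filter and in pool 1, and 1 to 2 without 1 library. With ACC against KMBA shoots it was 0 in place of 1 in pool 1 and 2 with only the 2 groups fitted (TAT3 added), and 0 to 1 without 1 library. With ACC roots against shoots it was 3 to 4 without 1 library, and the interaction gave 0 in place of 1 in a fit of all 6 groups and 0 to 1 without 1 library.

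Among values that were not called, VSP1 in KMBA against SA187 was -0.016 with pool as a covariate and -0.027 in pool 1, and CYP94B3 was -0.11 in ACC against SA187 and -0.12 in ACC against KMBA shoots with pool as a covariate. VSP1 in ACC roots against shoots was -0.13 with median-ratio scaling and -0.082 with length and GC trends subtracted, and in the interaction CYP94B3 was 0.045 with those trends subtracted and ST2A -0.32 at a pseudocount of 0.1. Without 1 library the sign also turned for VSP1 (-0.61 to 0.069) and TAT3 (-0.70 to 0.071) in SA187 against WT, VSP1 (-0.54 to 0.14) and TAT3 (-0.75 to 0.023) in KMBA against WT, CYP94B3 (-0.15 to 0.67), VSP1 (-0.027 to 0.13), VSP2 (-0.11 to 0.055) and TAT3 (-0.19 to 0.15) in KMBA against SA187, MYC2 (-0.19 to 0.085), CYP94C1 (-0.050 to 0.38) and CYP94B3 (-0.089 to 0.56) in ACC against KMBA shoots, TAT3 in KMBA roots against shoots (-0.24 to 0.050), and CYP94B3 (-0.43 to 0.21) and VSP2 (-0.0037 to 0.20) in the interaction. The causes were not tested.

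The number of all genes called moved by over 1.5 times from 254 to 140 (no filter), 52 (pool 1) and 10 (2 groups) with SA187, from 485 to 778 (pseudocount 0.1), 292 (2 groups) and 87 (pool 1) with KMBA, and from 769 to 1299 (pseudocount 0.1) with ACC against WT. It moved from 279 to 443 (pseudocount 0.1) and 142 (pool 1) with ACC against SA187, from 125 to 0 (pool 1) with ACC against KMBA shoots and from 216 to 391 (pseudocount 0.1) in roots, and from 1895 to 1167 for the interaction (all 6 groups). Without 1 library the count for SA187 against WT was 53, 725 and 101 (WT replicates 1, 2 and 3) and 48 and 12 (SA187 replicates 2 and 3), that for KMBA against WT 987 and 279 (WT replicates 2 and 3), that for ACC against WT 1216 (WT replicate 2), that for ACC against SA187 172 (SA187 replicate 1), that for ACC against KMBA shoots 51 (ACC replicate 1) and 77, 61 and 64 (KMBA replicates 1, 2 and 3), and that for the interaction 1227 (ACC root replicate 2) and 1241 (KMBA root replicate 1). The shares of all genes called rest on these counts. Same-numbered samples of different groups share only a number, with correlations of their deviations of -0.170 to 0.340, and the replicate block changed no call of a member, leaving 1, 1 and 3 members called with SA187, KMBA and ACC against WT.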

Other observations

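In roots, 1 of 8 tested genes for perception and transcription factors was called between the compounds, the NAC factor ANAC055, at 3.50 ± 1.74 FPKM with ACC and 0.635 ± 0.120 FPKM with KMBA (SD, n = 3 each, log2 difference 1.38, limma adjusted p = 0.0159). It passed the filter in roots only through the 3 ACC libraries, where it was high. JR1, a jasmonate-responsive lectin, was lower with ACC there, at 66.3 ± 7.25 against 99.0 ± 11.9 FPKM (-0.57, adjusted p = 0.0195), in the direction of VSP1 and VSP2. The ratio of ST2A to ST2B was 0.0665 ± 0.0291 in WT shoots, 0.0829 ± 0.0322 in SA187 shoots, 0.102 ± 0.0372 in KMBA shoots, 0.167 ± 0.0767 in ACC shoots and 8.91 ± 2.64 in KMBA and 9.08 ± 2.88 in ACC roots (SD, n = 3 each).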
